A study of Mus musculus with 289 samples.

Results

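Brevican (Bcan), the most abundant lectican transcript per length of these astrocytes, stood lower in gRNA pools than in the no gRNA pool of its own batch in all 6 comparisons of that kind, by log2 ratios of -8.17 to -0.87. Both comparisons of a batch share its no gRNA pool. The 9 genes described here code for proteins of the matrix around neurons: the lecticans Bcan, Ncan (neurocan), Vcan (versican) and Acan (aggrecan), the link proteins Hapln1 and Hapln2, the tenascins Tnr and Tnc, and the receptor Ptprz1. They were taken by name, with no threshold on a measured value, and are 9 of the 55487 gene rows in the largest count table. All 9 had a row in 4 of the 5 batch tables, and 8 had one in batch 3, where Hapln2 had none.

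The libraries came from the brain of adult transgenic mice expressing Cas9, the nuclease that cuts where a guide RNA (gRNA) directs it. A lentivirus built for astrocytes and named Mok-LV in the labels was put into the cerebral cortex, carrying a gRNA against the transcription factor Sox9, one against the transcription factor Trps1, both (dual gRNA) or a control gRNA. Single cells were drawn into an electrophysiology pipette and made into Smart-seq2 libraries, which read whole transcripts and carry no molecular identifiers. No gRNA cells are labelled only as adult in place of a day, and the sources used here do not say whether their animals received virus. In-slice controls are labelled as holding no cell. Of 289 labelled samples, values were at hand for 254, of which 242 were astrocytes and 12 in-slice controls. The other 35, all of batch 4 and including all its Trps1 gRNA cells of day 21, were not analysed here. Batch 1 held 4 dual gRNA (labelled days 17 to 20), 10 control gRNA (days 8 to 16) and 31 no gRNA cells. Those labels number the days in a run of nearly 1 per cell, so the day is uncertain in batch 1 and was not used there. Batch 2 held 8 dual gRNA cells of day 21, 7 control gRNA cells of day 21 and 8 control gRNA cells of day 7. Batch 3 held 14 dual gRNA and 21 Sox9 gRNA cells of day 7 and 6 no gRNA cells. Batch 4 held 16 Sox9 gRNA, 13 dual gRNA and 15 control gRNA cells at day 21, with 15 Trps1 gRNA cells at day 7. The cells of batch 5 were of day 21 (21 with Sox9 gRNA, 30 with Trps1 gRNA) or without gRNA (23).

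Lecticans are chondroitin sulphate proteoglycans that bind the sugar chain hyaluronan at one end and tenascins at the other. Link proteins lock a lectican onto hyaluronan, and tenascin-R cross-links lecticans into the mesh around neurons known as the perineuronal net, which restrains synaptic plasticity in the adult cortex. Astrocytes and cells of the oligodendrocyte lineage are known to make brevican, neurocan and Ptprz1. Ptprz1 is a transmembrane tyrosine phosphatase that itself carries chondroitin sulphate, is shed as phosphacan, and binds pleiotrophin and tenascins.

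The genes lie on 7 chromosomes of GRCm38. Bcan (ENSMUSG00000004892) spans chr3 87987531 to 88000230 on the minus strand, and Hapln2 (ENSMUSG00000004894, chr3 88021750 to 88027583, minus) lies 21519 bases away. Vcan (ENSMUSG00000021614, chr13 89655312 to 89742509, minus) and Hapln1 (ENSMUSG00000021613, chr13 89539796 to 89611652, plus) are also neighbours, 43659 bases apart. Ncan (ENSMUSG00000002341) spans chr8 70093085 to 70120873 on the minus strand and lies 2222 bases from the link protein gene Hapln4. Acan (ENSMUSG00000030607) spans chr7 79053483 to 79115099 on the plus strand, with the link protein gene Hapln3 2 bases away. Tnr (ENSMUSG00000015829, chr1 159523769 to 159931729, plus) shares exon bases with the antisense gene Gm38039, and Tnc (ENSMUSG00000028364, chr4 63959785 to 64047015, minus) with 8030451A03Rik. Reads of such overlaps cannot be assigned, since the sources used here do not say how strand was counted. Ptprz1 (ENSMUSG00000068748) spans chr6 22875502 to 23052916 on the plus strand.

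All 9 genes had an entry in the supplied RefSeq promoter table (GRCm38.p6). The upstream bases of Bcan, Ptprz1, Ncan and Tnr are shown because these genes carried most of the reads. They are written 5′ to 3′ on the gene's own strand and end just before the transcription start. ACAAT and ACAAAG, core letters read by Sox factors, and GATAA, core letters read by GATA-type zinc fingers, were searched on both strands, and no match overlapped another in these windows. A match is in capitals. The windows are chr3:88000357-88000606 (minus, 250 bases, 62% G or C) for Bcan, chr6:22875252-22875501 (plus, 250 bases, 71.6%) for Ptprz1, chr8:70120874-70121094 (minus, 221 bases, 55.7%) for Ncan and chr1:159523519-159523768 (plus, 250 bases, 46.8%) for Tnr.
Bcan: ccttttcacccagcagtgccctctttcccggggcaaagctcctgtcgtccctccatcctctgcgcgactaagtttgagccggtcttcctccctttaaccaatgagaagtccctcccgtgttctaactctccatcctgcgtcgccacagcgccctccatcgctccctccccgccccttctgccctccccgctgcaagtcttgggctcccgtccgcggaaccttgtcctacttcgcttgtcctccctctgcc
Ptprz1: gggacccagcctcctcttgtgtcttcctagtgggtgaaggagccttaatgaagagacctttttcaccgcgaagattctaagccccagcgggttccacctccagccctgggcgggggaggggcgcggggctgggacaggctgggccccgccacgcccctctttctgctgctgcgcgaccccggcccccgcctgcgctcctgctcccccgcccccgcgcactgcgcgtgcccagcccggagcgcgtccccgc
Ncan: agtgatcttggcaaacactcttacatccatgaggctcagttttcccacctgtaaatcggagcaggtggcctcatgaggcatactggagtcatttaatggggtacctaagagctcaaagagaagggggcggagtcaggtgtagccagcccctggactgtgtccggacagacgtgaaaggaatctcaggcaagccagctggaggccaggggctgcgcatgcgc
Tnr: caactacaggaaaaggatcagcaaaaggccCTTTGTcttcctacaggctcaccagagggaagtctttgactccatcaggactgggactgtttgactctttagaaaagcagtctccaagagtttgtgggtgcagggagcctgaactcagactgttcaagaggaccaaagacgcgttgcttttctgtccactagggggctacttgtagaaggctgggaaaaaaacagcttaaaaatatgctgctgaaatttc
The windows of Bcan, Ptprz1 and Ncan held none of these letters, and that of Tnr held 1 match, CTTTGT, the other strand of ACAAAG. Over 32851 promoter windows of the mouse, with a median of 52.4% G or C, 27.7% held ACAAT, 16.5% ACAAAG and 22.6% GATAA. A match describes letters only and is no measured site.

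Astrocytes held 15959 to 4656612 reads in genes (median 1094502) and in-slice controls 341394 to 2299609. The labels name no animal, so each gRNA label, day and batch forms 1 pool, so no p-value, test or standard error could be had, and every difference describes these libraries. All 15 astrocyte markers were read in all 16 astrocyte pools, with sums of 1916 (dual gRNA, batch 4) to 21391 CPM (dual gRNA, batch 1), where CPM is counts per 1000000 reads. In-slice pools summed to 68.9 CPM (batch 4) up to 2111 CPM (batch 5, all 15 read), so the highest of them lay above the lowest astrocyte pool. Single cells of that astrocyte pool ran down to 7.75 CPM, and 5 of its 13 cells held under 1000 CPM. A pool sum thus does not show that each library is an astrocyte. The targeted mRNAs followed the labels in some comparisons and not in others. Sox9 stood at 1860 CPM with dual against 209 CPM with control gRNA in batch 1, and in batch 4 at 189 CPM in Sox9 gRNA cells and 133 CPM in dual gRNA cells (4 of 13 with a read) against 177 CPM in control gRNA cells (9 of 15). Trps1 stood at 112 CPM with dual against 4.61 CPM with control gRNA in batch 1, at 19.4 CPM against 107 CPM in batch 2, and at 103 CPM with Trps1 gRNA of day 7 against 3.35 CPM with control gRNA in batch 4. Cas9 cuts need not lower an mRNA, so groups are named by label. Summed microglia and macrophage markers (11 genes, 10 or 11 of them read) stood at 4938 to 11671 CPM in the 13 gRNA pools. They stood at 239 to 315 CPM in the 3 no gRNA pools, where Ptprc was at 0 in each and C1qb, C1qc and Cx3cr1 also in batch 3. In-slice pools held 2206 to 27298 CPM of the same genes.

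CPM is the number of reads of a gene per 1000000 reads in genes, summed over the cells of a pool, with a 95% exact Poisson interval. Shares of cells have a 95% exact binomial (Clopper-Pearson) interval. Both cover counting error only, not the spread between cells or animals. A log2 ratio compares pooled CPM after adding 5 to each, which draws low genes towards 0. A gene was counted as past the fold when this ratio was 1 or more in size, and stayed so, with the same sign, once each pool's highest cell for that gene was left out. It needed 5 CPM or more in 1 of the pools. In pooled cells, fewer cells with the transcript and less transcript per cell cannot be told apart, so the cells are given beside each pool.

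Per kilobase of exon, Bcan had the highest level of the 9 genes in 13 of 16 astrocyte pools, with a median over pools of 81.3 CPM per kb (0.226 to 533). Ptprz1 had a median level of 23.3 CPM per kb (3.48 to 61.4) and Ncan 18.01 CPM per kb (0.0511 to 54.8), and their ranges overlap. Hapln1 (1.95), Tnr (1.59), Vcan (0.259) and Tnc (0.146) followed in median CPM per kb, and the medians of Acan and Hapln2 were 0. Bcan was read in 190 of 242 astrocytes, Ptprz1 in 186, Ncan in 156, Tnr in 94, Hapln1 in 46, Vcan in 35, Tnc in 26 and Acan in 9. Hapln2, the link protein of oligodendrocytes at nodes of Ranvier, was read in 3 of 201 cells, at 5.70 CPM or less.

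**Figure D1:**
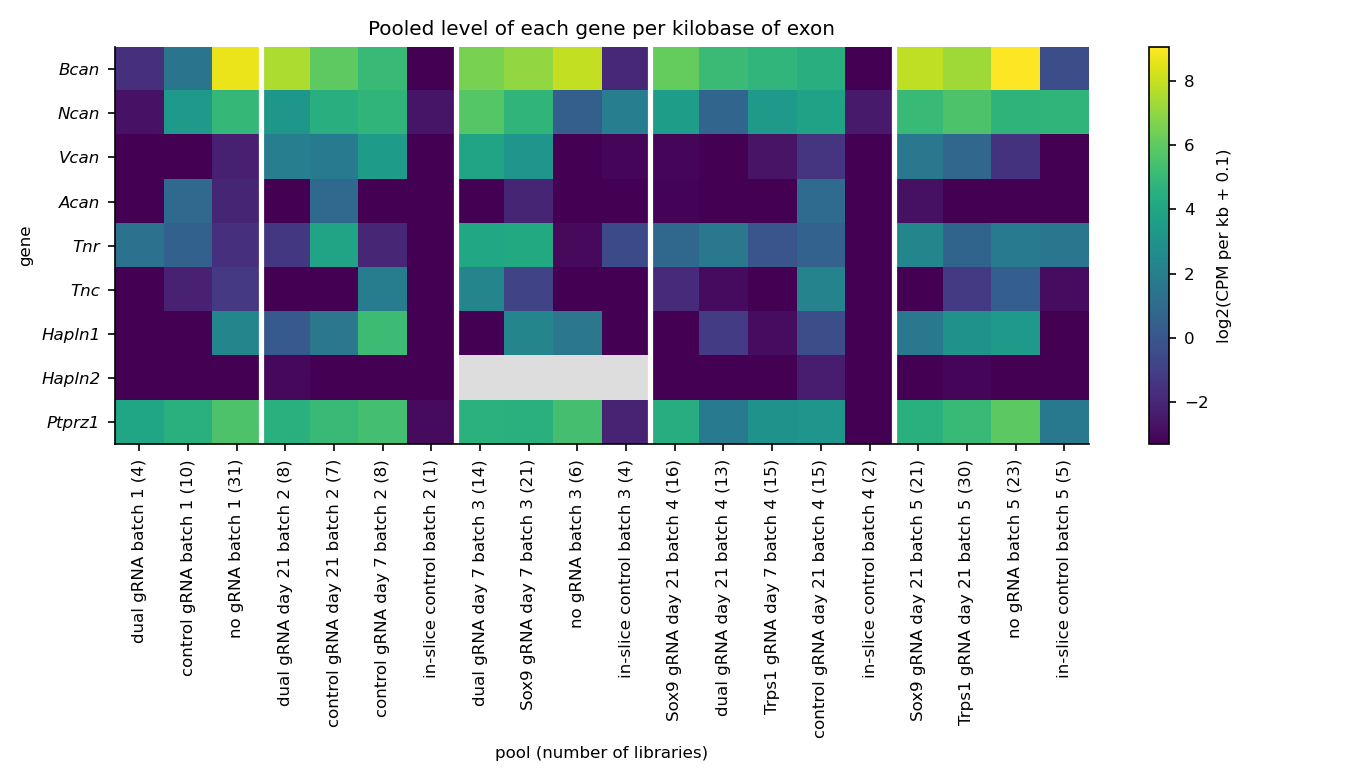
Level of each of the 9 genes in the 16 astrocyte and 4 in-slice pools, as log2(CPM per kb of exon + 0.1). Grey marks Hapln2 in batch 3, which has no row. Bcan is the highest gene in the 3 no gRNA pools (245 to 533 CPM per kb) and is at 0.226 CPM per kb in dual gRNA cells of batch 1.

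Bcan encodes a brain-specific lectican with a short core protein. In batch 1 its 4 dual gRNA cells held 0.695, 5.38, 0 and 0.640 CPM. The 10 control gRNA cells held 0 to 87.2 CPM (median 1.47) and the 31 no gRNA cells 1.25 to 6701 CPM (median 1051). Every dual gRNA cell lay under 10 CPM, whereas all 31 no gRNA cells had a read, though the lowest of those lie among the dual gRNA cells. The pools stood at 0.919 CPM (0.298 to 2.144) with dual gRNA, 10.7 CPM (8.84 to 12.8) with control gRNA and 1695 CPM (1681 to 1709) with no gRNA. The log2 ratios were -8.17 for dual against no gRNA and -6.76 for control against no gRNA, both sharing that no gRNA pool. The control gRNA value is thus also low, and 76.3% of its reads lay in 1 cell (2.79 CPM without it). Dual against control gRNA gave -1.41, and -0.53 without the highest cells.

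In batch 5 Bcan ranged over cells from 0 to 2545 CPM (median 583) with Sox9 gRNA, from 0 to 4098 CPM (median 433) with Trps1 gRNA, and from 0 to 5986 CPM (median 1502) with no gRNA. The cells overlap widely while the medians differ. Pooled levels were 941 CPM (926 to 955), 640 CPM (630 to 649) and 2165.6 CPM (2144 to 2187), giving log2 ratios of -1.20 for Sox9 gRNA and -1.75 for Trps1 gRNA against the shared no gRNA pool. The 3 title series of the Trps1 gRNA cells held 1094, 733 and 367 CPM (21T, 21T2, 21T3), and the no gRNA series AG and 2AG held 2511 and 1880 CPM, so every Trps1 series lay under both. With single series the ratio came within the fold for Trps1 gRNA with 21T alone (-0.98) and for Sox9 gRNA with 2AG alone (-0.995). Sox9 against Trps1 gRNA differed by 0.55, within the fold.

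In batch 3 Bcan ranged over cells from 0 to 3529 CPM (median 11.6) with dual gRNA, from 0 to 2704 CPM (median 301) with Sox9 gRNA and from 313 to 2415 CPM (median 628) with no gRNA. Bcan was found in 9 of the 14 cells with dual gRNA, in 16 of the 21 with Sox9 gRNA and in all 6 with no gRNA. Pooled levels were 379 CPM (371 to 387), 544 CPM (536 to 552) and 996 CPM (963 to 1031). The log2 ratio was -1.38 for dual against no gRNA and -0.87 for Sox9 against no gRNA, which is within the fold. Trimmed-mean (TMM) scaling gave -1.70 and median-ratio scaling -2.04 for Sox9 against no gRNA. With the 7ST2 series alone, dual against no gRNA gave -0.94. Of the 6 no gRNA cells, 3 had under 100000 reads. Leaving such cells out gave -0.89 for Sox9 against no gRNA.

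In batches 2 and 4, where gRNA pools were set against control gRNA, Bcan stood lower in none of the comparisons. In batch 4 it ranged over cells from 0 to 1568 CPM (median 3.63) with Sox9 gRNA, 0 to 620 CPM (43.7) with dual gRNA, 0 to 1089 CPM (1.58) with Trps1 gRNA of day 7 and 0 to 736 CPM (1.12) with control gRNA. These cells overlap throughout. The pools stood at 282 CPM (275 to 290), 141 CPM, 113 CPM and 87.6 CPM (83.3 to 92.0). Sox9 against control gRNA gave a log2 ratio of 1.63 (1.98 without the highest cells), the 1 comparison in which Bcan was higher past the fold. Its 2 title series held 208 (21S) and 325 CPM (21S2). In batch 2 the pools held 747 CPM with dual gRNA, 260 CPM with control gRNA of day 21 and 131 CPM with control gRNA of day 7. Of the dual gRNA reads 76.4% lay in 1 cell, and the log2 ratio of 1.504 to the day 21 control became 0.61 without the highest cells.

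In-slice controls held little Bcan, with a read in 3 of 12 libraries and 8.65 CPM at most. That level was exceeded by 92 of 182 gRNA cells (50.5%) and 50 of 60 no gRNA cells (83.3%) over all batches, of which 2 and 4 held no cells without gRNA. By batch the counts were 0 of 4 dual gRNA, 1 of 10 control gRNA and 23 of 31 no gRNA cells in batch 1. In batch 3 they were 7 of 14 dual gRNA, 14 of 21 Sox9 gRNA and 6 of 6 no gRNA cells. In batch 5 they were 15 of 21 Sox9 gRNA, 18 of 30 Trps1 gRNA and 21 of 23 no gRNA cells. The microglia markers given above stood higher in each gRNA pool of batches 1, 3 and 5 than in its no gRNA pool, and their part in the Bcan values was not tested. Astrocyte markers did not run in 1 direction beside them: they summed to 8047, 15886 and 15826 CPM in dual, Sox9 and no gRNA cells of batch 3, to 21391, 9896 and 16861 CPM in dual, control and no gRNA cells of batch 1, and to 15885, 19779 and 17440 CPM in Sox9, Trps1 and no gRNA cells of batch 5.

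**Figure D2:**
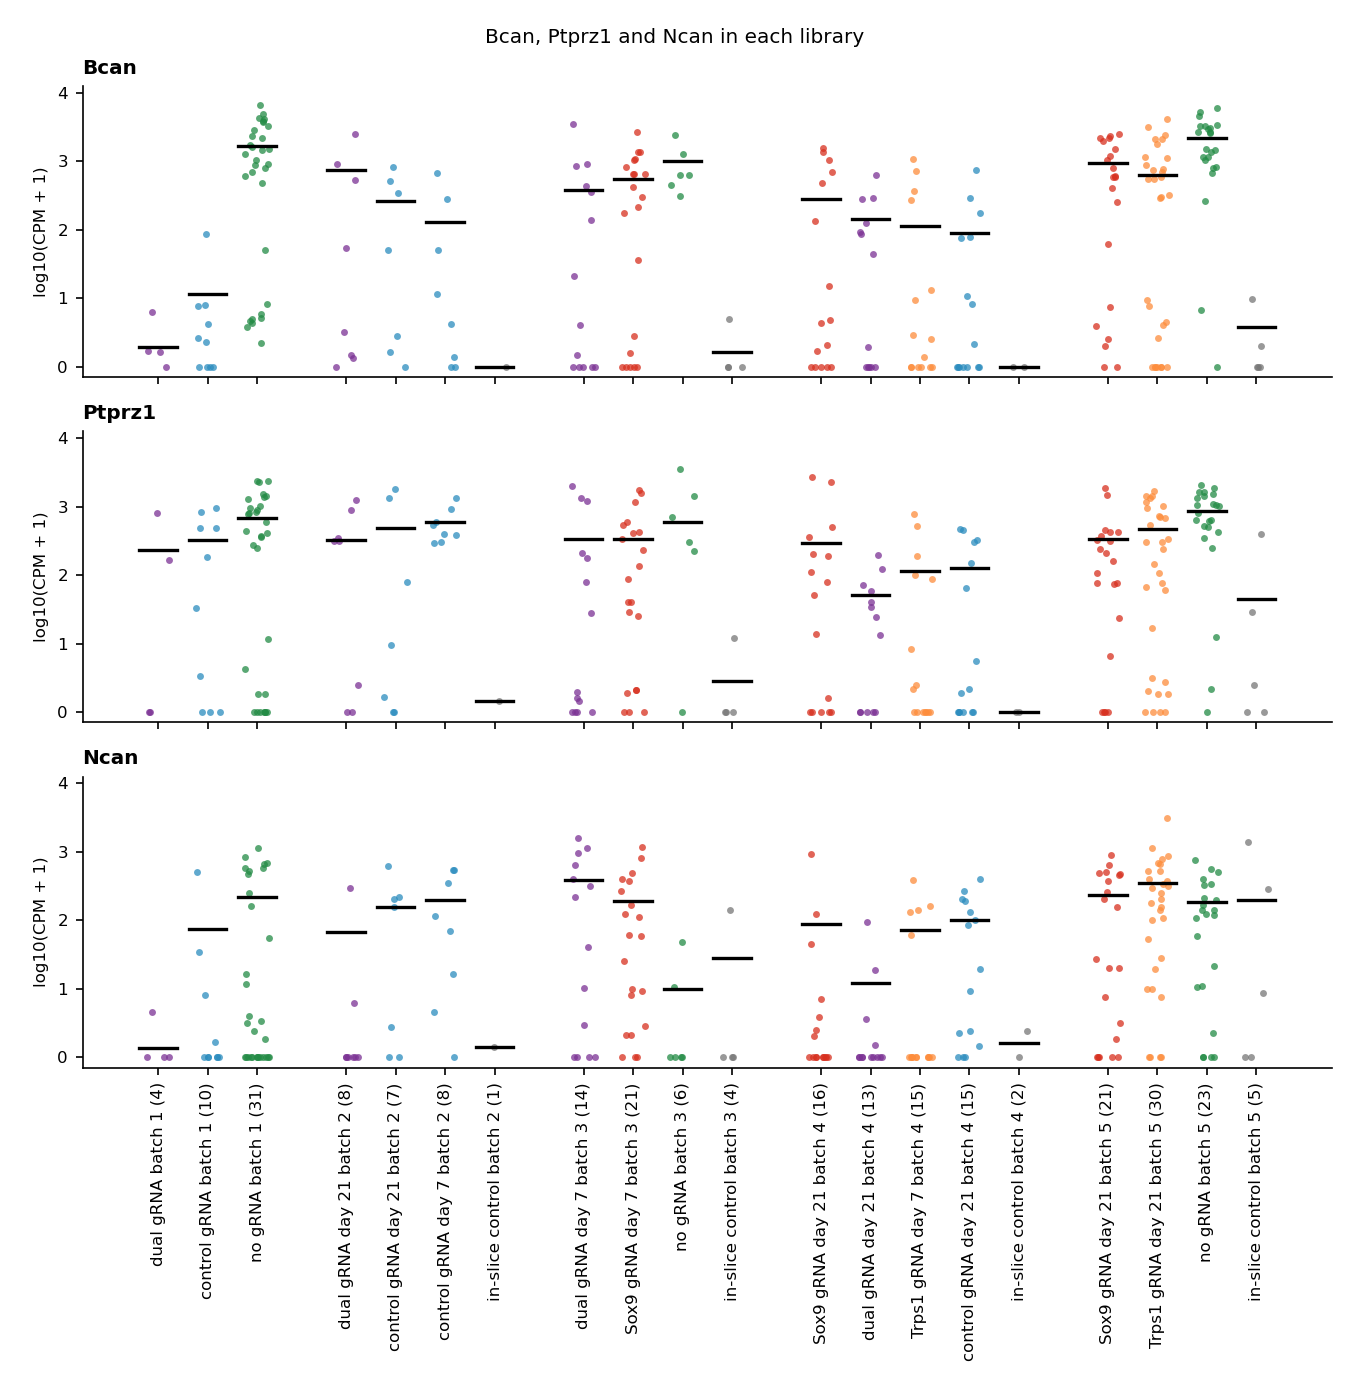
Each point is 1 library and shows log10(CPM + 1) of Bcan, Ptprz1 and Ncan by pool, with the pooled level as a black bar. For Bcan the 4 dual gRNA cells of batch 1 lie under 10 CPM and the no gRNA pools stand at 996 to 2165.6 CPM, while cells of batches 2 and 4 run from 0 upwards in every pool.

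Ncan, a second lectican made by astrocytes and neurons, took different directions in different batches. In batch 3 its cells ranged from 0 to 1583 CPM (median 130) with dual gRNA and from 0 to 1191 CPM (median 57.7) with Sox9 gRNA. With no gRNA, 4 of 6 cells were at 0 and the others held 9.61 and 47.5 CPM. Those at 0 included the 3 cells with under 100000 reads (94129, 19048 and 15959), where a transcript is easily missed. The pools stood at 394, 194 and 9.10 CPM, with log2 ratios of 4.82 for dual and 3.82 for Sox9 against the shared no gRNA pool, which rests on 30 Ncan reads. Excitatory and pan-neuronal markers (10 genes, all read) summed to 5180, 5056 and 1801 CPM in the same pools and to 4268 CPM in the in-slice controls of batch 3, and their part in the Ncan ratios was not tested. In batch 1 only 2 reads in 1 of 4 cells were found with dual gRNA (0.368 CPM). Control gRNA cells pooled at 74.0 CPM and no gRNA cells at 216 CPM (18 of 31 cells, up to 1140 CPM). Dual gRNA was 588-fold lower than no gRNA by raw CPM, with a counting interval of 163 to 4856. The control gRNA pool had 94.7% of its Ncan reads in 1 cell at 506 CPM and held 4.52 CPM without it.

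In batch 4 Ncan stood at 88.6 CPM with Sox9 gRNA, 11.1 CPM with dual gRNA, 72.6 CPM with Trps1 gRNA of day 7 and 101 CPM with control gRNA. It was read in 7 of 16, 4 of 13, 5 of 15 and 12 of 15 cells, so the control pool held it most often. Dual gRNA was lower than control gRNA by a log2 ratio of -2.72 and than Sox9 gRNA by -2.54. The Sox9 gRNA pool had 86.1% of its reads in 1 cell at 930.5 CPM (13.4 CPM without it), and with its 21S series alone the ratio to it was not past the fold once the highest cells were left out (0.16). With 21S2 alone it was -0.57. In batch 2 the dual gRNA pool stood at 67.9 CPM, with 99.2% of reads in 1 cell, against 158 CPM with control gRNA of day 21 (5 of 7 cells, median 155), a log2 ratio of -1.16. TMM scaling gave -0.86 and median-ratio scaling -0.84, both within the fold. Control gRNA of day 7 stood at 195 CPM (7 of 8 cells). In batch 5 the levels were 233 CPM with Sox9 gRNA, 347 CPM with Trps1 gRNA and 188 CPM with no gRNA, all ratios within the fold. Ncan was also found where no cell was drawn. It was read in 6 of 12 in-slice libraries, at 1409 CPM in 1 library of batch 5, a level that 2 of 182 gRNA cells and 0 of 60 no gRNA cells exceeded. All other astrocytes lay at or below that library.

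Vcan, a lectican of the early brain matrix and of oligodendrocyte progenitors, was read in 33 of 182 gRNA cells (18.1%) and 2 of 60 no gRNA cells (3.33%). These shares pool all batches, and batches 2 and 4 held no cells without gRNA, so they are no comparison within a batch. In batch 3 Vcan was read in 5 of 14 dual gRNA cells, up to 1492 CPM, and in 8 of 21 Sox9 gRNA cells, up to 1914 CPM, but in 0 of 6 no gRNA cells. Of those 6, 3 had under 100000 reads. Pooled levels were 219 and 125 CPM, at least 240-fold and 137-fold higher than the no gRNA pool when 3 reads over that pool set its floor. With the 7ST series alone the dual gRNA ratio no longer passed the fold without the highest cells (0.90). In batch 5 Vcan stood at 43.3 CPM with Sox9 gRNA (5 of 21 cells), 22.9 CPM with Trps1 gRNA (2 of 30) and 3.69 CPM with no gRNA (1 of 23). Sox9 against no gRNA gave a log2 ratio of 2.48. Of the Sox9 gRNA cells 1 held 584 CPM and the next 98.4 CPM. The 1 no gRNA cell with Vcan held 79.0 CPM, with 2622 CPM of summed oligodendrocyte progenitor markers. Batch 2 control gRNA cells held 46.2 CPM at day 21, in 1 cell, and 166 CPM at day 7, in 3 of 8 cells. In batches 1 and 4 no pool passed 3.79 CPM. Acan, the main lectican of cartilage and of nets around interneurons, was read in 9 of 242 cells. Its highest cells were all of control gRNA pools, at 229 CPM (batch 4), 151 CPM (batch 1) and 80.1 CPM (batch 2).

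Tnr, the tenascin of perineuronal nets and oligodendrocyte-lineage cells, showed the same batch 3 pattern. Its cells ranged from 0 to 2641 CPM (median 9.71; 9 of 14 with a read) with dual gRNA and from 0 to 1790 CPM (median 3.95; 13 of 21) with Sox9 gRNA. The no gRNA pool held 1 read in 6 cells, 3 of which had under 100000 reads. Pools stood at 212, 233 and 0.303 CPM, ratios of 700.5 (126 to 27674) and 769 (138 to 30373) over that 1 read. Without the highest cells the gRNA pools still held 57.3 and 134 CPM. The title series differed: Sox9 gRNA cells held 367 (7S) and 14.2 CPM (7S2), and dual gRNA cells 13.3 (7ST) and 388 CPM (7ST2). In batch 5 Tnr stood at 64.0 CPM with Sox9 gRNA (6 of 21 cells), 19.2 CPM with Trps1 gRNA (15 of 30) and 44.7 CPM with no gRNA (13 of 23). Sox9 against Trps1 gRNA gave 1.51, the higher pool having fewer cells with a read. That ratio became 1.18 without cells at 1000 CPM or more of progenitor markers, no longer past the fold without the highest cells (0.67), and 0.55 with the 21T series alone. In batch 1 control gRNA held 17 CPM (4 of 10 cells) and no gRNA 2.76 CPM (4 of 31), a log2 ratio of 1.504, which without the highest cells became 0.87 at a pseudocount of 10 CPM. In batch 4 levels were 11 to 38.6 CPM, all within the fold. Control gRNA of day 21 in batch 2 stood at 192 CPM, in 1 of 7 cells at 1145 CPM.

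Tnc, a tenascin of developing and injured brain, was read in 26 of 242 cells. In batch 4 it stood at 1.37 CPM with Sox9 gRNA, 0.239 CPM with dual gRNA and 0 with Trps1 gRNA of day 7, against 35.8 CPM with control gRNA (5 of 15 cells, one at 499 CPM, 9.87 CPM without it). These 3 ratios no longer passed the fold without the highest cells at a pseudocount of 10 CPM (-0.95, -0.97 and -0.99). In batch 2 it was read in 0 of 7 control gRNA cells of day 21 and in 3 of 8 of day 7 (28.2 CPM), at least 140.5-fold lower at day 21. The 37.3 CPM of dual gRNA cells of batch 3 lay in 1 cell at 490 CPM.

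In batch 3 markers of oligodendrocyte progenitors moved with Vcan and Tnr. There the 10 progenitor markers summed to 706 CPM with dual gRNA (9 read, C1ql1 at 0, cells 0 to 3287 CPM), 712 CPM with Sox9 gRNA (10 read, cells 0 to 4412 CPM) and 68.8 CPM with no gRNA (2 read). In the no gRNA cells, 3 of which had under 100000 reads, 8 markers were at 0, the defining Pdgfra, Cspg4 and Sox10 among them. In some other comparisons they ran in opposite directions. Vcan stood at 46.2 CPM at day 21 against 166 CPM at day 7 of the control gRNA in batch 2, where the markers summed to 464 and 188 CPM. Tnr stood at 17 CPM with control against 2.76 CPM with no gRNA in batch 1, where they summed to 55.4 and 267 CPM. Over all batches Pdgfra was read in 14 of 35 cells with a Vcan read (40%) and in 10 of 207 cells without (4.83%). Cells with 1000 CPM or more of these markers, a limit set after seeing the data, were 4 of the 14 with dual gRNA and 3 of the 21 with Sox9 gRNA. Pdgfra was read in 1 of those 4 (18.3 CPM) and 0 of those 3. They held 96.5% and 88.8% of the Tnr reads and 78.3% and 64.4% of the Vcan reads of those pools. Without them Tnr stood at 10.4 CPM with dual and 30.9 CPM with Sox9 gRNA, and Vcan at 65.4 and 52.5 CPM, against 0.303 CPM of Tnr and 0 of Vcan with no gRNA. The same 4 dual gRNA cells held 56.3% of the Bcan and 64.7% of the Ptprz1 reads of their pool, and the 3 Sox9 gRNA cells 26.3% and 12.3%. Markers of mature oligodendrocytes (12 genes) also stood higher, at 1144 CPM with dual gRNA (8 read) and 6909 CPM with Sox9 gRNA (12 read), against 582 CPM with no gRNA (5 read, Mog, Mag, Cldn11, Ermn, Opalin, Aspa and Gjc3 at 0). The 4 cells of batch 3 highest in Tnr held 12352 CPM (dual) and 13444, 27929 and 58559 CPM (Sox9) of these. The part of either list in the Vcan and Tnr values was not tested. One Sox9 gRNA cell held 1914 CPM of Vcan and 1664 CPM of Tnr with 4195 CPM of progenitor markers. The control gRNA cell of day 21 in batch 2 that carried all of its pool's Tnr held 886 CPM of Pdgfra.

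**Figure D3:**
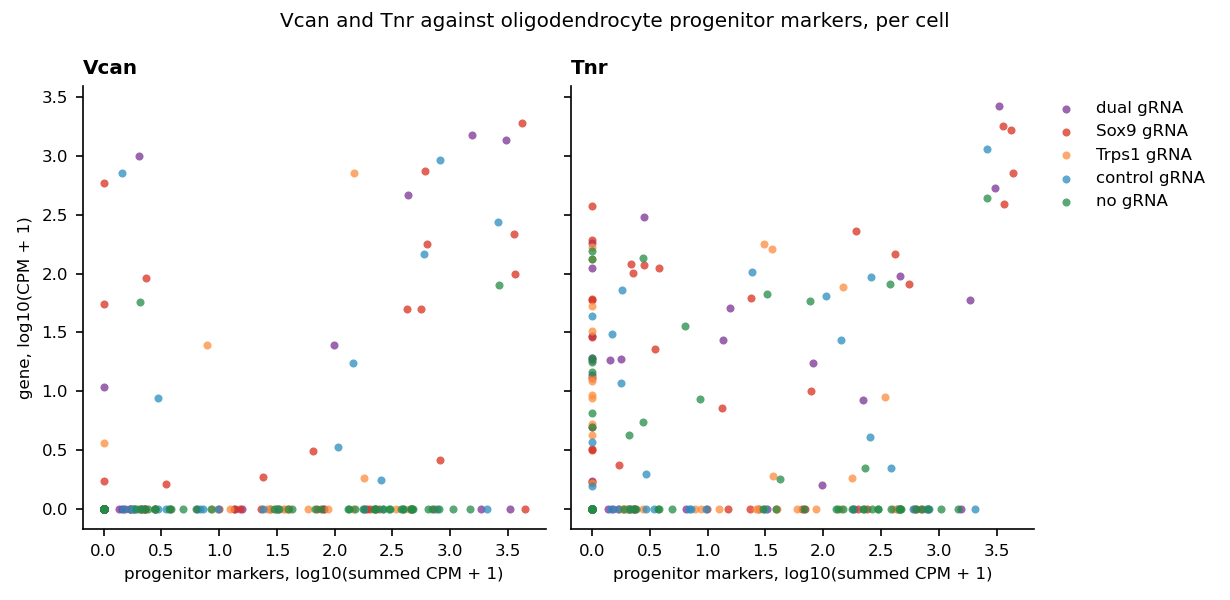
Vcan and Tnr against the summed level of 10 oligodendrocyte progenitor markers, 1 point per cell, on log10(CPM + 1) axes. In batch 3 the cells at 1000 CPM or more of markers, 4 with dual gRNA and 3 with Sox9 gRNA, hold most of the Tnr reads, and no cell without gRNA there has Vcan.

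Hapln1, the link protein that anchors lecticans in nets, was read in 27 of 182 gRNA cells (14.8%) and 19 of 60 no gRNA cells (31.7%). These shares pool all batches, and batches 2 and 4 held no cells without gRNA, so they are no comparison within a batch. All 46 cells with a Hapln1 read also had a Bcan read, which 78.5% of all astrocytes had. In batch 1 none of the 4 cells with dual gRNA or the 10 with control gRNA had a Hapln1 read, against 10 of 31 no gRNA cells, up to 307 CPM (29.9 CPM pooled). The gRNA pools were thus at least 54.2-fold and 110.1-fold lower, by a floor of 3 reads per pool. In batch 5 it stood at 17.4 CPM with Sox9 gRNA (3 of 21 cells), 46.7 CPM with Trps1 gRNA (9 of 30) and 61.7 CPM with no gRNA (8 of 23). The Sox9 gRNA pool was lower than no gRNA by -1.57 and than Trps1 gRNA by -1.20. Against Trps1 gRNA TMM scaling gave -0.98, median-ratio scaling -0.91 and the 21T3 series alone -0.37. In batch 3 dual gRNA cells had no read, Sox9 gRNA cells stood at 28.9 CPM (4 of 21) and no gRNA at 17.3 CPM, all in 1 cell at 150.4 CPM. Dual against Sox9 gRNA was -2.76, and without the highest cells it became -0.56 with the 7S and -0.29 with the 7S2 series alone. Control gRNA cells of batch 2 held 17 CPM at day 21 and 212 CPM at day 7, where 94.3% lay in 1 cell at 1622 CPM (13.9 CPM without it), and at a pseudocount of 10 CPM this ratio was -0.81 without the highest cells. Pools of batch 4 held at most 4.07 CPM.

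The receptor Ptprz1 followed Bcan in its direction against no gRNA. In batch 1 the 4 dual gRNA cells held 807, 167, 0 and 0 CPM, the control gRNA cells 0 to 942 CPM (median 108) and the no gRNA cells 0 to 2407 CPM (median 410.5). Pooled levels were 230, 328 and 685 CPM, with log2 ratios of -1.55 for dual and -1.05 for control against no gRNA. Of the dual gRNA reads 92.6% lay in 1 cell. In batch 5 cells ranged from 0 to 1887 CPM (median 161) with Sox9 gRNA, from 0 to 1701 CPM (median 190) with Trps1 gRNA and from 0 to 2050 CPM (median 800) with no gRNA. The cells overlap, and the no gRNA median is the highest. Pools stood at 330, 478 and 875 CPM, with ratios of -1.39 for Sox9 and -0.87 for Trps1 against the shared no gRNA pool, the second within the fold. TMM scaling took the second to -1.20.

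In batch 3 Ptprz1 stood at 339 CPM with dual gRNA (10 of 14 cells), 334 CPM with Sox9 gRNA (18 of 21) and 598 CPM with no gRNA (5 of 6), ratios of -0.81 and -0.83, within the fold. One no gRNA cell at 3517 CPM had 19048 reads in all. In batch 4 dual gRNA cells held 49.5 CPM (0 to 194), against 297 CPM with Sox9 gRNA (0 to 2723, with 57.5% in 1 cell) and 128 CPM with control gRNA (0 to 465). These gave -2.47 for dual against Sox9 and -1.28 for dual against control gRNA. With the 21S series alone the first became 0.29 without the highest cells. The second came to -0.94 with TMM scaling, -0.97 with median ratios and -0.80 without cells low in astrocyte markers. The dual gRNA pool there also held the lowest sum of astrocyte markers, 1916 CPM against 9484 CPM with Sox9 and 8504 CPM with control gRNA, all 15 read in each, and the part of this in the ratios was not tested. In batch 2 Ptprz1 stood at 328 CPM with dual gRNA, 483 CPM with control gRNA of day 21 and 587 CPM with control gRNA of day 7, all within the fold, and all 8 cells of day 7 held it. It was read in 5 of 12 in-slice libraries, at 404 CPM at most, in the library with 1409 CPM of Ncan.

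The mix of lecticans differed between pools. Summed over the 4 lecticans per kilobase, the level was 0.277, 14.7 and 447 CPM per kb in dual, control and no gRNA cells of batch 1. It was 163, 169.6 and 246 CPM per kb in dual, Sox9 and no gRNA cells of batch 3, and 267, 207 and 559 CPM per kb in Sox9, Trps1 and no gRNA cells of batch 5. Bcan made up 93.2% to 99.5% of this sum in the 3 no gRNA pools. In gRNA pools of the same batches it made up 81.6% (dual, batch 1, on few reads), 17.9% (control, batch 1), 57.1% (dual, batch 3), 78.9% (Sox9, batch 3), 86.7% (Sox9, batch 5) and 76.0% (Trps1, batch 5). The share of Ncan was 33.6% and 15.9% in dual and Sox9 gRNA cells of batch 3 against 0.513% with no gRNA, and 12.1% and 23.3% in Sox9 and Trps1 gRNA cells of batch 5 against 4.67% with no gRNA. In batch 4 Bcan held 84.9% with Sox9, 95.7% with dual and 73.3% with Trps1 gRNA of day 7, against 57.1% with control gRNA.

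**Figure D4:**
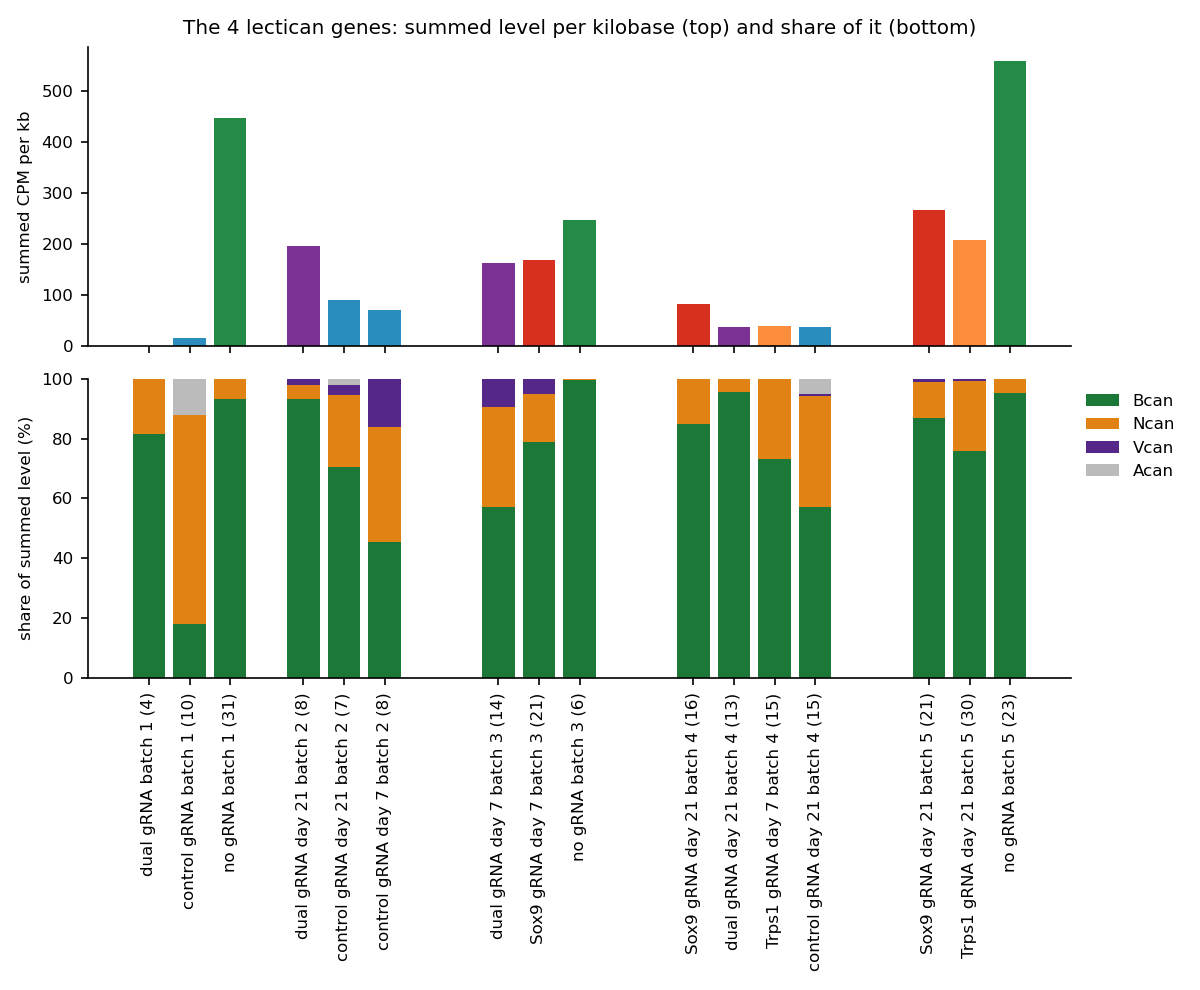
Summed lectican level in CPM per kb (top) and the percent of it from Bcan, Ncan, Vcan and Acan (bottom) in the 16 astrocyte pools, with cell numbers in brackets and top bars coloured by gRNA label. Bcan makes up 93.2% to 99.5% in the 3 no gRNA pools, and Ncan makes up 70.1% in control gRNA cells of batch 1.

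Counted over the 9 genes and 15 comparisons, 36 of the 93 ratios with 5 CPM or more in 1 pool were past the fold, 10 higher and 26 lower. Among all genes the share past the fold ran by comparison from 4.58% to 48.2% higher and from 3.22% to 38.7% lower. The total alone is therefore no result about these genes, and each count is given beside its share. Against no gRNA in batch 1, 4 of the 5 genes at 5 CPM or more were lower and 0 higher with dual gRNA, where 38.7% of all genes were lower and 5.85% higher. With control gRNA there 4 of 6 were lower and 1 higher, where 17.8% of all genes were lower and 17.6% higher. Dual against control gRNA called 0 of 5, beside 30.9% lower and 4.58% higher among all genes. In batch 3, 3 of 6 genes were higher and 0 lower with Sox9 gRNA, where 48.2% of all genes were higher and 3.22% lower, so 3 of 6 is near the background. With dual gRNA 3 of 7 were higher and 1 lower, beside 39% higher and 5.29% lower. Dual against Sox9 gRNA called 1 of 7, lower, beside 19.1% lower and 8.24% higher. These batch 3 ratios run high for genes at large: the median log2 ratio over all genes was 1.43 with Sox9 and 1.38 with dual gRNA, against 2.21 and 3.08 over the 6 and 7 genes described here. The 3.08 is the Tnc ratio, which rests on 1 cell, and without the highest cells these medians were 2.79 and 0. With pools at 0 set to their floor the dual gRNA median was 4.82.

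In batch 5, 3 of 7 genes were lower and 1 higher with Sox9 gRNA against no gRNA, where 14% of all genes were lower and 13.7% higher. With Trps1 gRNA 1 of 7 was lower and 0 higher, beside 8.84% lower and 18.9% higher. Sox9 against Trps1 gRNA called 1 of 6 lower and 1 higher, beside 18.4% lower and 7.41% higher. In batch 4, Sox9 against control gRNA called 1 of 6 higher and 1 lower, beside 8.02% higher and 21.3% lower. Dual against control gRNA called 3 of 6, all lower, beside 18% lower and 7.72% higher, and dual against Sox9 gRNA 2 of 4, both lower, beside 12.4% lower and 16.3% higher. Trps1 gRNA of day 7 against control gRNA of day 21, which differ in day too, called 1 of 6, lower, beside 16.7% lower and 12.6% higher. In batch 2, dual against control gRNA called 1 of 7, lower, beside 14.5% lower and 11.8% higher. Day 21 against day 7 of the control gRNA called 3 of 8, all lower, beside 21.9% lower and 9.29% higher. In batch 5 the median log2 ratio over the genes described was -1.20 with Sox9 and -0.87 with Trps1 gRNA, against 0.07 and 0.41 over all genes, and without the highest cells -0.05 and -0.46.

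Another scaling changed the balance of these all-gene calls. The share of higher among all calls went to 34.5% with TMM for control against no gRNA in batch 1 (49.7% on plain CPM), to 81.6% with median ratios for Sox9 against no gRNA in batch 3 (93.7%) and to 74.9% for dual against no gRNA there (88.1%). It went to 47.2% for Sox9 against control gRNA (27.4%), 43.2% with TMM for dual against control gRNA (30.01%) and 46.8% for dual against Sox9 gRNA in batch 4 (57.0%). In batch 5 it went to 48.0% for Trps1 against no gRNA (68.1%) and 44.99% for Sox9 against Trps1 gRNA (28.7%). The median of all genes moved by -0.60 (control against no gRNA, batch 1, TMM) to 0.72 (Sox9 against control gRNA, batch 4, median ratios).

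**Figure D5:**
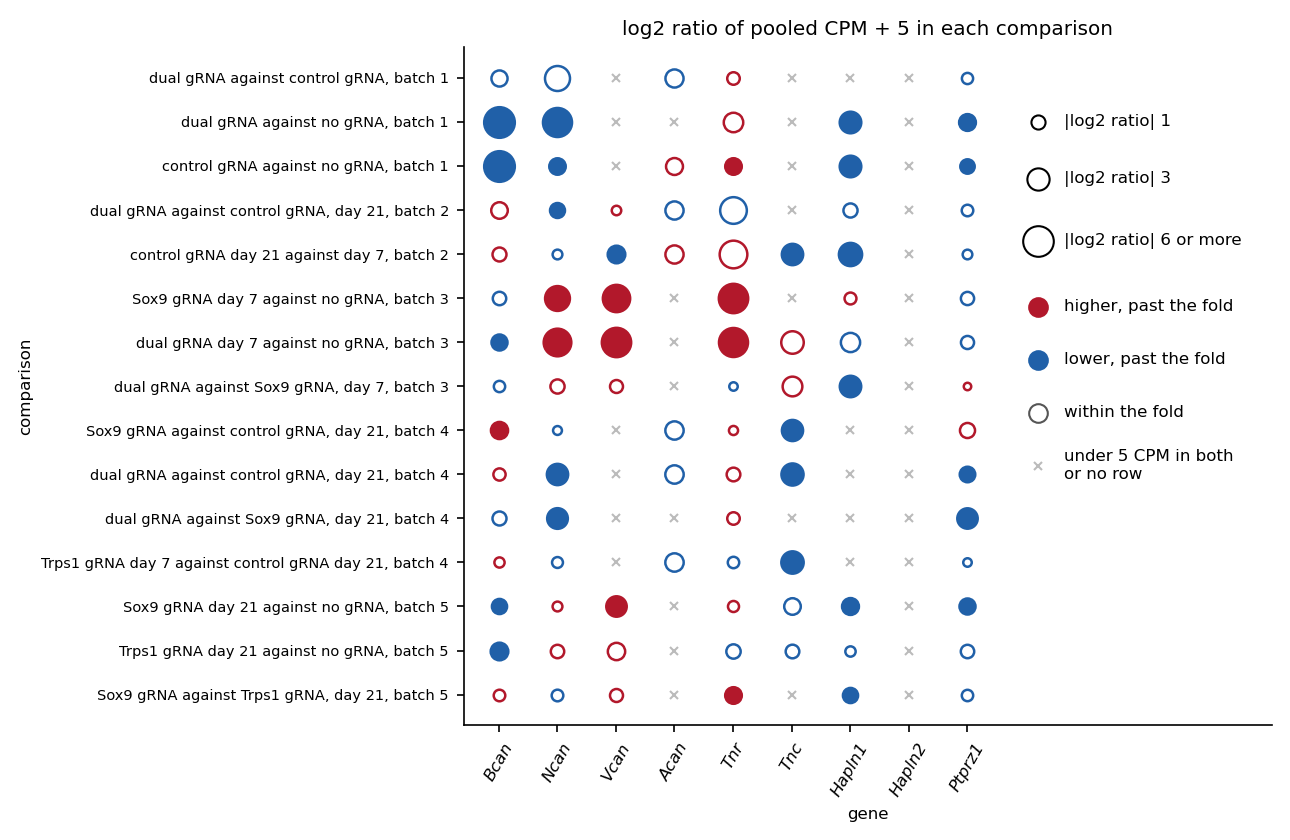
Log2 ratios of the 9 genes in the 15 comparisons within batches, red for higher and blue for lower, with point area growing with the size of the ratio. Filled points are past the fold also without the highest cells, open points are not, and crosses could not be formed because both pools were under 5 CPM or the gene had no row. Bcan lies under 0 in all 6 comparisons with no gRNA, from -8.17 to -0.87, while Ncan lies at -5.36 with dual gRNA in batch 1 and at 4.82 in batch 3.

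Another 73 genes of this matrix were described as 6 lists: hyaluronan synthesis, turnover and receptors, chondroitin sulphate synthesis, proteases that cut lecticans and their inhibitors, receptors and partners, ligands of Ptprz1, and the remaining link proteins and tenascins. Of those at 5 CPM or more in 1 of the pools, 2 were higher and 14 lower of 40 with dual against no gRNA in batch 1, beside 5.85% higher and 38.7% lower of all genes. With control against no gRNA 4 were higher and 7 lower of 43 (17.6% and 17.8% of all genes). In batch 3, 19 were higher and 2 lower of 49 with Sox9 gRNA (48.2% and 3.22%), and 17 higher and 4 lower of 46 with dual gRNA (39% and 5.29%). In batch 5, 8 were higher and 9 lower of 52 with Sox9 gRNA (13.7% and 14%), and 9 higher and 9 lower of 51 with Trps1 gRNA (18.9% and 8.84%). Against control gRNA in batch 4, 9 were higher and 8 lower of 46 with Sox9 gRNA (8.02% and 21.3%), and 2 higher and 11 lower of 46 with dual gRNA (7.72% and 18%). In batch 2, dual against control gRNA had 3 higher and 7 lower of 40 (11.8% and 14.5%). Dual against Sox9 gRNA in batch 4 had 3 higher and 13 lower of 41 (16.3% and 12.4%). With dual gRNA in batches 1 and 3 and Sox9 gRNA in batch 3 the share of these genes in the leading direction lay near or under that of all genes. Among shares above it were those higher with Sox9 against control gRNA and lower with dual against Sox9 gRNA, both in batch 4. The share lower with Trps1 gRNA in batch 5 lay above it too.

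Cd44, a hyaluronan receptor, stood at 157 CPM with dual against 51.6 CPM with no gRNA in batch 1. It stood at 147 and 64.2 CPM with dual and Sox9 gRNA against 0 with no gRNA in batch 3, and at 36.5 and 57.9 CPM with Sox9 and Trps1 gRNA against 3.46 CPM in batch 5. These 5 ratios were past the fold and higher. Control against no gRNA in batch 1 (131 against 51.6 CPM) was 1.26, and 0.60 without the highest cells, so it did not pass. In batch 4 Cd44 was lower with Sox9 (7.09 CPM) and dual gRNA (31.4 CPM) than with control gRNA (69.9 CPM). Hyal1 and Hyal2, which degrade hyaluronan, were lower in batch 5, at 6.61 and 0.761 CPM with Sox9 gRNA and 0 and 13.5 CPM with Trps1 gRNA, against 46.3 and 50.02 CPM with no gRNA. In batch 3 they lay the other way where past the fold, with Hyal2 at 22.8 CPM with Sox9 gRNA and Hyal1 at 13.6 CPM with dual gRNA against 0 of both with no gRNA. Tnfaip6, which binds hyaluronan in inflamed tissue, stood at 59.6 CPM with control against 0.188 CPM with no gRNA in batch 1, and at 96.1 CPM with dual against 20.01 CPM with no gRNA in batch 3.

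Adamts1, a protease able to cut lecticans, was lower with dual gRNA (24.3 CPM) than with control (286 CPM) or no gRNA (415 CPM) in batch 1. It was also lower with dual (10.5 CPM) than with control gRNA (83.9 CPM) in batch 2, and with Sox9 (9.95 CPM) and dual (28.4 CPM) than with control gRNA (382 CPM) in batch 4. In batch 5 it stood at 85.7 CPM with Sox9 against 237.8 CPM with no gRNA. Within the control gRNA of batch 2 it was also lower, at 83.9 CPM at day 21 against 298 CPM at day 7. Adamts1 was not past the fold for control against no gRNA in batch 1, dual against no gRNA in batch 3 or Trps1 against no gRNA in batch 5. Nor was it for Trps1 gRNA of day 7 against control gRNA in batch 4. Its ratio for Sox9 against no gRNA in batch 3 is not given here. Timp3, an inhibitor of such proteases, did not keep 1 direction: dual gRNA held 284 against 48.6 CPM of control gRNA in batch 1 and 113 against 22.4 CPM in batch 2, but 4.06 against 83.1 CPM in batch 4. Among ligands of Ptprz1, pleiotrophin (Ptn) stood at 500.3 CPM with dual against 93.1 CPM with control gRNA in batch 2, and at 128 CPM with Sox9 against 51.7 CPM with control gRNA in batch 4. Against the same control, Ptn gave a log2 ratio of 1.90 with Trps1 gRNA of day 7. With dual gRNA it gave -0.49, within the fold. For dual against Sox9 gRNA there the 2 ligands tested, Ptn among them, were both lower. Csgalnact1, which starts chondroitin sulphate chains, was at 0 with dual and 24.4 CPM with control gRNA against 78.6 CPM with no gRNA in batch 1. In batch 3 it stood at 27.6 CPM with dual but 129 CPM with Sox9 gRNA, against 67.9 CPM with no gRNA. In batch 4 it stood at 2.93 CPM with dual and 84.7 CPM with Sox9 gRNA.

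Of 242 astrocytes, Bcan was read in 190, Ptprz1 in 186 and both in 160, so each alone was already frequent. Across the cells of a pool their log2(CPM + 1) values had Spearman correlations of 0.203 to 0.652 over 11 pools (median 0.541), given as a description, since cells of a pool share batch and differ in depth. The median was 0.445 for Ncan with Ptprz1 and 0.128 for Bcan with Ncan, each over 9 pools. Across the 16 pools, of 6931 genes ranked, those whose log2 level ran most like that of Bcan were Cxcl14 (Pearson 0.875) and Ppp4r1l-ps (0.857), and Ptprz1 had 0.514 with Bcan. The nearest genes were Ogdh (0.949) and Tpm1 (0.943) for Ncan, Anapc5 (0.909) and Cuta (0.891) for Tnr, and Mul1 (0.868) and Plcd1 (0.852) for Ptprz1. Pools of a batch are not independent of each other, so these are descriptions too.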

How the data were processed

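Single astrocytes and in-slice controls were sequenced with Smart-seq2. The authors deposited raw counts of reads per gene and library, 1 table for each batch, as whole numbers with differing totals. Per the submitters' processing notes STAR 2.6.0a and RSEM 1.3.0 were tools and GRCm38 or mm10 the build, in steps that the notes do not assign. The sources used here do not say how strand was counted or genes filtered. Reads are not independent molecules, so intervals cover counting error only.

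Rows naming no gene were kept out of totals. They held 75.6% of counts in batch 1, 22.3% in batch 2 and 0.00115% to 0.379% in batches 3 to 5. Gene IDs were matched to symbols (55141 of 55487 in batch 1, 23747 of 23787, 24265 of 24304, 34531 of 34636 and 27786 of 27849 in batches 2 to 5), and coordinates come from GENCODE vM21 on GRCm38. Counts were summed per gRNA label, day and batch and given as CPM. Where a pool had no read, 3 reads over the pool set its floor. Log2 ratios used a pseudocount of 5 CPM, genes at 5 CPM or more in 1 pool, and a limit of 1 with and without the highest cell of each pool. Per-length levels used merged exon bases. Scripts used Python 3.11.15, numpy 2.4.6, pandas 2.3.3 and scipy 1.17.1, edgeR 4.0.16 (TMM factors) and DESeq2 1.42.0 (size factors, no tests) in R 4.3.3, and the steps were tested on simulated data. All 9 genes are reported. Of the other matrix genes, up to 3 per list and comparison with the largest ratios were available for naming. Members and lists were chosen with earlier results of these data known. The text also names the highest single cells, chosen after their values were seen.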

Additional observations from a re-analysis of the deposited data

Results flagged for a closer look

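Within pools of 4 to 10 libraries, 14 of 34 sets of values had 1 library far from the others by Dixon's criterion on log2(CPM + 5). Chance gives about 1 in 20 such sets, and in sparse reads 1 library with a read among libraries at 0 is enough to meet it. In batch 1 these were a dual gRNA cell at 303 CPM of Tnr, and control gRNA cells at 87.2 CPM of Bcan, 506 CPM of Ncan and 151 CPM of Acan. In batch 2 they were dual gRNA cells at 299.8 CPM of Ncan, 464 CPM of Vcan and 58.8 CPM of Hapln1, and control gRNA cells of day 21 at 275 CPM of Vcan, 80.1 CPM of Acan and 1145 CPM of Tnr. A control gRNA cell of day 7 there held 1622 CPM of Hapln1. In batch 3 they were a no gRNA cell at 150.4 CPM of Hapln1 and an in-slice library at 139 CPM of Ncan, and in batch 5 an in-slice library at 122 CPM of Tnr. The Vcan, Acan and Tnr values of control gRNA cells of day 21 in batch 2 belong to 1 cell.

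Ncan took opposite directions for the same labels, with a log2 ratio of -5.36 for dual against no gRNA in batch 1 and 4.82 in batch 3. The labelled days are 17 to 20 in batch 1, where they are uncertain because they number nearly 1 day per cell, and 7 in batch 3. The difference was not tested. It came from 6 pairs of comparisons set side by side.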

How the results depend on the processing

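No paired analysis was possible because the numbers in the labels name cells, no animal is given, and no comparison has a test. Of the 36 ratios past the fold, 0 of 478 values under other settings changed sign, but many of these could not. Another minimum or pseudocount, or keeping the highest cells in, leaves the sign as it was. Without the highest cells the rule for the fold fixed it. With single title series and without the highest cells, signs did change. Ncan came to 0.16 and Ptprz1 to 0.29 with 21S for dual against Sox9 gRNA in batch 4. Hapln1 came to 0.96 with 21T3 for Sox9 against Trps1 gRNA in batch 5. The total past the fold was 30 to 57 over the settings run. This total and the counts that follow have no all-gene share beside them, so they describe only how the calls shift with the setting. Counts of genes past the fold per comparison moved by more than 1.5 times as follows. A pseudocount of 1 CPM gave 2 for dual against control gRNA in batch 1 (from 0), 2 in batch 2 (from 1) and 2 for Trps1 against control gRNA in batch 4 (from 1). A pseudocount of 10 CPM gave 1 for Sox9 against control gRNA (from 2), 1 for dual against Sox9 gRNA (from 2) and 0 for Trps1 against control gRNA in batch 4 (from 1). TMM and median-ratio scaling both gave 0 for dual against control gRNA in batch 2, where Ncan dropped out, 5 for Sox9 against no gRNA in batch 3 (from 3), where Bcan and Ptprz1 came in as lower, and 2 for Trps1 against no gRNA in batch 5 (from 1), where Ptprz1 came in. Median-ratio scaling gave 2 for dual against Sox9 gRNA in batch 3 (from 1). With the highest cells kept in, the counts were 3 (dual against control, batch 1), 4 and 5 (dual against control and day 21 against day 7, batch 2), 3 (dual against Sox9, batch 3), 4 and 2 (Sox9 and Trps1 against control, batch 4) and 3 (Trps1 against no gRNA, batch 5).

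Leaving out cells at 1000 CPM or more of progenitor markers, an alternative added after seeing the data, gave 2 for dual against control gRNA in batch 2, 4 for dual against Sox9 gRNA in batch 3 and 1 for Sox9 against Trps1 gRNA in batch 5, where Tnr dropped out. With single title series, dual against Sox9 gRNA in batch 3 gave 4 (7ST only, all lower, with Bcan, Ncan and Tnr coming in), 3 (7ST2 only, 2 higher, Ncan and Vcan, and 1 lower) and 2 (7S2 only, Vcan and Tnr, both higher, with Hapln1 dropping out). In batch 4 it gave 1 (21S only, Tnr, higher, with Ncan and Ptprz1 dropping out). Trps1 against no gRNA in batch 5 gave 2 (21T2 only), 4 (21T3 only) and 2 (2AG only). The causes were not tested. Leaving out cells low in astrocyte markers, also added after seeing the data, gave 11 higher and 25 lower, against 10 and 26, and leaving out cells under 100000 reads gave 10 and 26. Of the other values, 1001 stayed within the limits used and 544 moved. The 1001 include 93 ratios each for no minimum, a minimum of 20 CPM and highest cells kept in, settings that leave a ratio unchanged. They include 93 more from leaving out cells under 100000 reads, which only the no gRNA pool of batch 3 held. Without the highest cells 80 ratios moved and 13 stayed. With median ratios 66 moved and 27 stayed, and with TMM 58 and 35. A pool without a read limits what can be seen to about 3 reads.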
